A study of Mus musculus with 18 samples.

Results

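The Cyp4a genes encode the fatty acid omega-hydroxylases of the liver, and 6 of them were followed here: Cyp4a10, Cyp4a14, Cyp4a31, Cyp4a32, Cyp4a12a and Cyp4a12b. They were chosen by symbol from the liver expression table. All 6 were found among its 19057 symbols, and all 6 were among the 10822 genes that were tested. The study asked how transplanted gut microbiota act on male ICR mice, an outbred stock, made diabetic with streptozotocin (STZ), a toxin that kills insulin-producing beta cells. Liver RNA of 18 mice aged 10 weeks was sequenced, with 3 mice in each of 6 groups. Con mice had regular diet and saline, and STZ mice had 1 injection of the toxin. A10-FMT mice had STZ and then, by mouth, small intestinal contents pooled from donors given alginate oligosaccharide (AOS) at 10 mg/kg, while Con-FMT mice had STZ and the pooled contents of control donors. AOS mice and STZ+AOS mice carry the same dose of AOS in their labels, without or with STZ, and no transplant. Because donor contents were pooled, the 3 recipients of a group do not stand for 3 donors.

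CYP4A enzymes are P450 proteins of the endoplasmic reticulum that add a hydroxyl group to the last carbon of medium- and long-chain fatty acids. The omega-hydroxy acids are then oxidised to dicarboxylic acids, which peroxisomes shorten. In mouse liver Cyp4a10 and Cyp4a14 are classical targets of the fatty acid receptor PPARalpha and rise with fasting and diabetes, whereas Cyp4a12a is a male-biased gene whose product also makes 20-HETE from arachidonic acid.

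The 6 genes lie together on chromosome 4 (GRCm38, GENCODE M21). In map order, Cyp4a12a is at chr4:115299046-115332815 and Cyp4a12b at chr4:115411624-115439034, both on the plus strand. Cyp4a14 is at chr4:115486200-115496142 on the minus strand. It is followed on the plus strand by Cyp4a10 at chr4:115518264-115533649, Cyp4a31 at chr4:115563649-115579015 and Cyp4a32 at chr4:115600969-115621602. Cyp4a12b overlaps a processed pseudogene on the other strand, Gm12837.

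Sequence bears on every value below, because reads are assigned to members that are near copies. The coding sequences of Cyp4a10 and Cyp4a32 were 97.2% identical, those of Cyp4a10 and Cyp4a31 96.6%, and those of Cyp4a12a and Cyp4a12b 98.5%. Cyp4a14 was 76.0% to 77.6% identical to the other members. The stretch around the cysteine that binds haem shows the 3 sequence types in 60 bases of coding exon. It starts at coding base 1330 in Cyp4a10, 1324 in Cyp4a14 and 1327 in Cyp4a12a. Capitals mark bases that differ from Cyp4a10, and the stretch of Cyp4a31 and Cyp4a32 is the same as that of Cyp4a10, and that of Cyp4a12b the same as that of Cyp4a12a.
Cyp4a10: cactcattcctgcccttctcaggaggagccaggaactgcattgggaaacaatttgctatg
Cyp4a14: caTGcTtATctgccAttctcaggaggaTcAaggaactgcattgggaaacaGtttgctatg
Cyp4a12a: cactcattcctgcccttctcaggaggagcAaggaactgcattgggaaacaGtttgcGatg
Reads from this stretch cannot separate Cyp4a10 from Cyp4a31 or Cyp4a32, nor Cyp4a12a from Cyp4a12b.

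Other stretches do separate them. The 60 coding bases with the most differences within each near-identical set are shown next, with capitals at the positions where the members of the set differ. In Cyp4a10, Cyp4a31 and Cyp4a32 these are coding bases 200 to 259, with 9 of the 77 positions that differ over the whole coding sequence.
Cyp4a10: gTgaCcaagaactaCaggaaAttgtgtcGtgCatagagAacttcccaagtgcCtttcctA
Cyp4a31: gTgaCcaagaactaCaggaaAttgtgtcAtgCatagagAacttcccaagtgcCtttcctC
Cyp4a32: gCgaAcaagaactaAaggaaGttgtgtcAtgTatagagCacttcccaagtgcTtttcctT
In Cyp4a12a and Cyp4a12b they are coding bases 624 to 683, with 4 of 23 differing positions.
Cyp4a12a: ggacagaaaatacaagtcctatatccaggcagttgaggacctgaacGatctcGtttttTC
Cyp4a12b: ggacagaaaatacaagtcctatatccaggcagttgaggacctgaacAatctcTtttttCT
Of all 35-base windows of the coding sequence, 45.8% were found in no other member for Cyp4a10, 99.5% for Cyp4a14, 57.0% for Cyp4a31, 38.5% for Cyp4a32 and 34.2% for each of Cyp4a12a and Cyp4a12b. Cyp4a14 is thus the member whose value can borrow least from another. The values of Cyp4a31, Cyp4a32 and Cyp4a12b are uncertain where a near copy is abundant.

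**Figure D1:**
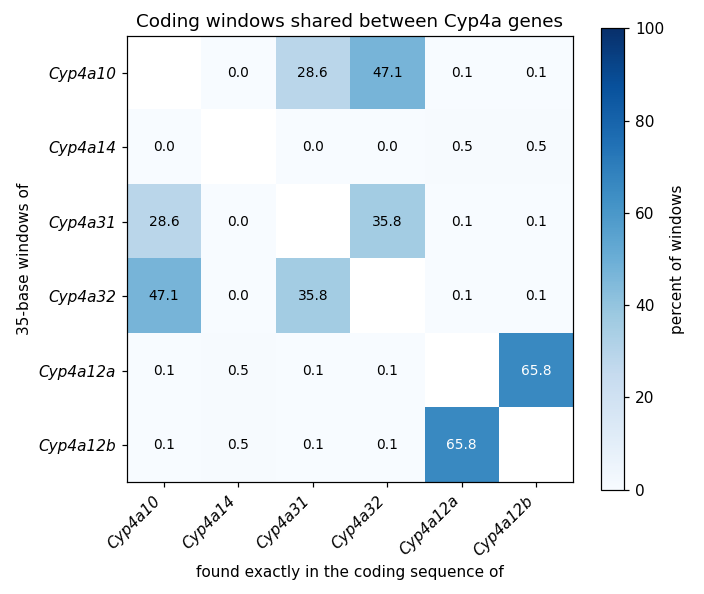
Percent of the 35-base windows of each coding sequence (rows) found exactly in that of another member (columns). Cyp4a12a and Cyp4a12b shared 65.8% of windows, Cyp4a10 and Cyp4a32 shared 47.1%, and Cyp4a14 shared at most 0.5% with any member.

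Levels are given as deposited, in RPKM, a read count divided by gene length and sequencing depth, so that it is a scale per length on which genes can be compared. Differences between groups are differences in mean log2(RPKM + 1), tested with limma over all 10822 genes and called at an adjusted p under 0.05. All 6 hepatocyte markers were expressed in every group, and their summed level was 42220 to 56700 RPKM in Con and 36020 to 51960 RPKM in STZ. The 6 stellate cell markers summed to 77.7 to 88.0 RPKM in Con and 113.4 to 137.8 RPKM in STZ, and the Kupffer cell markers to 52.8 to 82.2 and 83.3 to 188.3 RPKM. Adipocyte markers summed to at most 0.32 RPKM and kidney tubule markers to at most 5.23 RPKM. The 3 erythroid markers differed more between groups, with sums of 1228 to 1971 RPKM in Con, 2112 to 2722 in AOS, 455.8 to 1833 in STZ and 279.7 to 1502 in STZ+AOS. They were at 1378 to 2789 RPKM in the A10-FMT mice and at 2332 to 8835 RPKM in the Con-FMT mice, the latter without overlap with STZ. Alas2, the haem synthesis gene of red cells, averaged 117.2 RPKM in Con and 18.9 RPKM in STZ. Pancreatic acinar markers reached 49.4 RPKM in STZ+AOS mouse 3 and at most 1 RPKM in the other groups. The part of these other cells in the Cyp4a values was not tested, and in whole liver fewer cells of a type and less RNA per cell cannot be told apart. STZ mouse 3 stood apart from the other STZ mice in several Cyp4a genes, so results that rest on it are given with and without it.

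STZ turned the Cyp4a family over. Cyp4a10 and Cyp4a14, barely expressed in Con, became 2 of the more abundant liver transcripts, Cyp4a32 and Cyp4a31 rose as well, and Cyp4a12a and Cyp4a12b fell. All 6 members passed the test, against 36.1% of all genes tested, and Cyp4a14 and Cyp4a10 had the largest and second largest rises of all 10822 genes.

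Cyp4a10, the most abundant member in the STZ livers on average, had 1.29, 2.76 and 2.77 RPKM in the Con mice. In the STZ mice it had 1264, 1178 and 696.4 RPKM. The groups lay far apart, and STZ mouse 3 was the lowest of its group. Con averaged 2.27 ± 0.85 RPKM and STZ 1046 ± 306 RPKM (SD, n = 3 each), a ratio of means of 460. In limma the difference was 8.31 log2 units (SE 0.54, adjusted p = 3e-07). Its rank by RPKM among the 19057 symbols moved from 7872 to 9503 in the Con livers to 68 to 113 in the STZ livers.

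Cyp4a14, a PPARalpha target like Cyp4a10, had 0.20, 0.57 and 0.55 RPKM in Con and 885.4, 1111 and 409.5 RPKM in STZ. The means were 0.44 ± 0.21 and 802.0 ± 358 RPKM (SD, n = 3 each), and the limma difference was 9.02 log2 units (SE 0.68, adjusted p = 2.1e-06). STZ mouse 3 was again the lowest STZ mouse. The Con values are low, at 0.57 RPKM or less, so the ratio of means (1823) is imprecise, and on the log2(RPKM + 1) scale the rise is understated.

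Cyp4a32 was the leading one of the 4 rising members in Con, at 11.2, 24.2 and 17.7 RPKM, and reached 138.0, 120.0 and 134.6 RPKM in STZ. Unlike Cyp4a10 and Cyp4a14 it was no lower in STZ mouse 3 than in STZ mouse 2. The means were 17.7 ± 6.5 and 130.8 ± 9.6 RPKM (SD, n = 3 each), a ratio of 7.39, and the limma difference was 2.88 log2 units (SE 0.41, adjusted p = 0.000223). In Con the level of Cyp4a32 was 638% to 878% of that of Cyp4a10, and in STZ it was 10.2% to 19.3%. The order of the genes by level thus changed. They share many windows, and how far the Cyp4a32 values in STZ are reads of Cyp4a10 was not tested.

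Cyp4a31 stayed the least abundant of the rising members. It had 0.33, 0.16 and 0.27 RPKM in Con and 4.16, 4.56 and 0.99 RPKM in STZ, where it was 0.14% to 0.39% of Cyp4a10. Its difference was 1.62 log2 units (SE 0.56, limma adjusted p = 0.0342). This call was the weakest of the 6 members. It was lost without the filter on low values (adjusted p = 0.0758), under both rescalings of the libraries (quantile normalization and median-ratio scaling), and without any 1 of Con mouse 1, 2 or 3 or STZ mouse 1 or 2. Cyp4a31 passed the filter only through STZ-treated mice, since every Con and AOS library was under 1 RPKM.

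Cyp4a12a made up most of the Cyp4a signal in Con and was nearly lost in 2 STZ mice. It had 386.7, 362.7 and 379.0 RPKM in Con and 0.41, 0.40 and 94.7 RPKM in STZ. All STZ mice were below all Con mice, and 47.6% of all genes had no overlap between these groups. STZ mouse 3 had a level 237 times that of STZ mouse 2. The means were 376.1 ± 12.3 and 31.8 ± 54.4 RPKM (SD, n = 3 each), and the limma difference was -6.04 log2 units (SE 1.41, adjusted p = 0.00468). Without STZ mouse 3 it was -8.07 log2 units (SE 1.11, limma adjusted p = 9.45e-05).

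Cyp4a12b, the near copy of Cyp4a12a, had 12.4, 9.73 and 11.3 RPKM in Con. In STZ it was listed at 0 in mouse 1 and had 0.06 RPKM in mouse 2 and 1.61 RPKM in mouse 3. It followed Cyp4a12a, with STZ mouse 3 the highest of the group, and its difference was -3.11 log2 units (SE 0.79, limma adjusted p = 0.00762). Cyp4a12b was 2.68% to 3.20% of Cyp4a12a in Con and 1.70% of it in STZ mouse 3. How far its values are reads of Cyp4a12a was not tested.

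**Figure D2:**
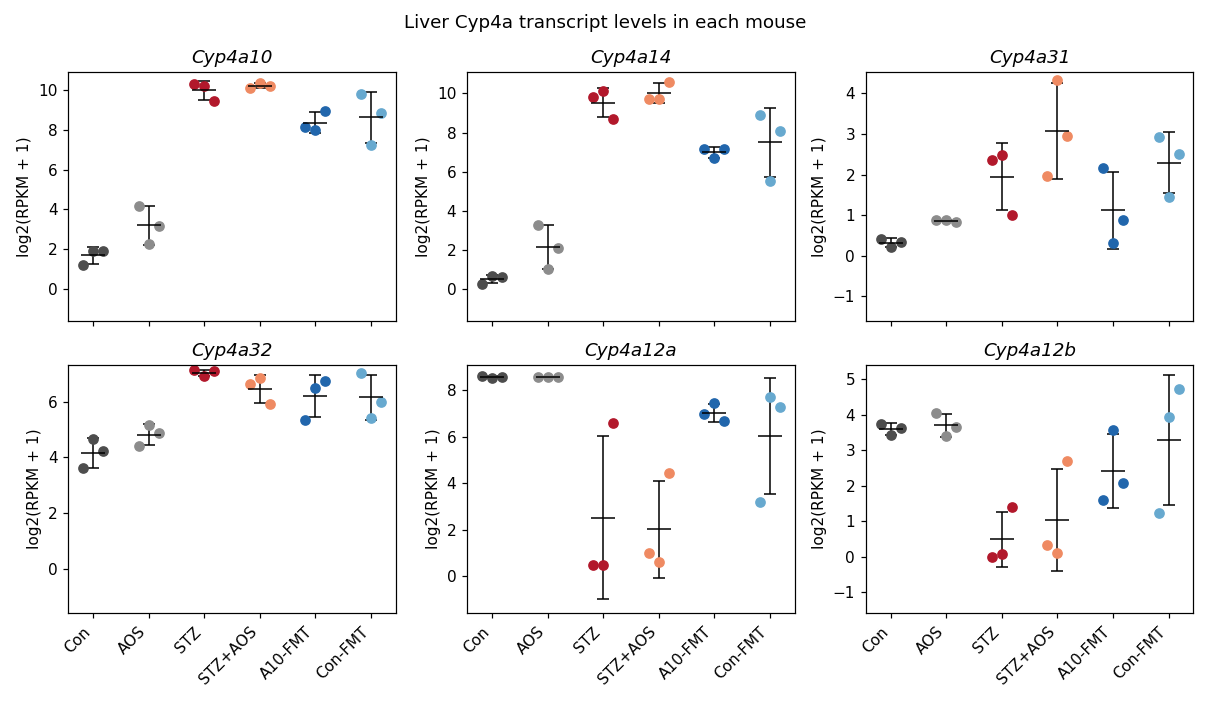
Level of each Cyp4a gene as log2(RPKM + 1) in each of the 18 mice (points, mouse 1 to 3 from left to right) with the group mean and SD (bars, n = 3); y axes differ between panels. Cyp4a10, Cyp4a14 and Cyp4a32 are higher in all 12 STZ-treated mice than in the 6 mice without STZ, and Cyp4a12a is lower in all 12.

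Without STZ mouse 3 all 6 calls held, with 8.58 log2 units for Cyp4a10, 9.44 for Cyp4a14, 2.10 for Cyp4a31, 2.86 for Cyp4a32 and -3.55 for Cyp4a12b beside the value of Cyp4a12a above. The 5 calls other than that of Cyp4a31 also held under both rescalings. As deposited, 85.5% of the genes called between STZ and Con were higher in STZ, and the median gene was 0.21 log2 units higher. After quantile normalization 50.4% of calls were higher, and after median-ratio scaling 50.0%. The differences of the members, from 1.62 to 9.02 log2 units in size, are all larger than that shift.

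Summed over the 6 genes, Cyp4a RPKM rose from 400.1 to 412.0 in the Con livers to 1338 to 2414 in the STZ livers. Cyp4a12a made up 90.6% to 93.8% of the sum in Con and 0.017% to 7.08% in STZ. Cyp4a10 made up 0.31% to 0.69% in Con and 48.8% to 55.2% in STZ, and Cyp4a14 30.6% to 46.0% in STZ. The RPKM of Cyp4a14 relative to Cyp4a10 rose from 0.155 to 0.207 in Con to 0.588 to 0.944 in STZ. The mean ratios were 0.187 ± 0.028 and 0.744 ± 0.182 (SD, n = 3 each; two-sided exact permutation p = 0.1, the smallest that 3 against 3 mice allow).

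**Figure D3:**
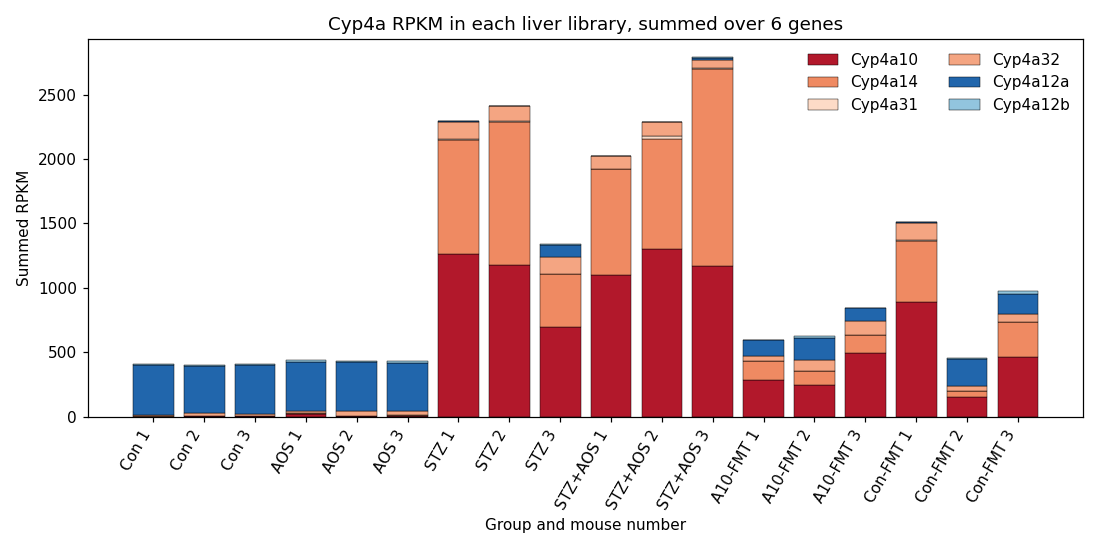
Summed RPKM of the 6 Cyp4a genes in each liver library (stacked bars, 1 per mouse, colours for genes). Cyp4a12a fills most of the bar in the Con and AOS mice, Cyp4a10 and Cyp4a14 fill it in the STZ and STZ+AOS mice, and the FMT mice hold all of these, with summed values from 458.5 to 1509 RPKM.

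AOS alone left Cyp4a12a at its Con level and gave higher but uncalled values for Cyp4a10 and Cyp4a14. No member passed the test in AOS against Con, where 0.00924% of all genes did (1 gene, and 781 at an unadjusted limma p under 0.05). The 3 AOS mice had 17.2, 3.72 and 8.03 RPKM of Cyp4a10 and 8.78, 1.06 and 3.37 RPKM of Cyp4a14. Every AOS mouse was above every Con mouse in both, yet the differences of 1.53 (SE 0.54, limma adjusted p = 0.605) and 1.64 log2 units (SE 0.68, adjusted p = 0.66) did not pass. Cyp4a31, at 0.83, 0.84 and 0.79 RPKM, did not overlap Con either. Groups that did not overlap were thus seen for 3 of 6 members, and for 24.4% of all genes. Cyp4a32 had 20.2, 34.97 and 28.1 RPKM and overlapped Con. Cyp4a12a was at 374.8, 381.2 and 379.1 RPKM, a difference from Con of 0.01 log2 units with a 95% confidence interval from -2.998 to 3.02. This interval rests on a spread pooled over all 6 groups, and the SD within Con and AOS was 12.3 and 3.24 RPKM. Cyp4a12b was at 15.3, 9.59 and 11.6 RPKM.

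STZ+AOS livers, like STZ livers, were dominated by Cyp4a10 and Cyp4a14. No member passed the test between them, as no gene did (0% called, and 657 genes at an unadjusted limma p under 0.05). Cyp4a10 was at 1097, 1305 and 1168 RPKM and Cyp4a14 at 825.8, 852.0 and 1535 RPKM. The differences from STZ were 0.23 (95% confidence interval -0.91 to 1.37) and 0.47 log2 units (-0.97 to 1.92). Cyp4a31 reached its highest value in the series here, with 2.89, 19.0 and 6.66 RPKM. Cyp4a32, at 98.7, 114.8 and 58.7 RPKM, lay below all 3 STZ mice, by 0.58 log2 units (SE 0.41, limma adjusted p = 0.811). Groups without overlap were seen for 5.13% of all genes here. Cyp4a12a was at 1.01, 0.52 and 20.4 RPKM and Cyp4a12b at 0.25, 0.07 and 5.44 RPKM. Mouse 3, the library with the acinar transcripts, was the highest of its group in both and also in Cyp4a14.

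Against the groups without STZ, STZ+AOS differed in all 6 members. This held against AOS, where 37.9% of all genes were called, and against Con, where 47.3% were. The effect of STZ with AOS minus that without it was not called for any member (0% of all genes called, and 584 at an unadjusted limma p under 0.05). That difference was -1.30 log2 units for Cyp4a10 (SE 0.76) and -1.23 for Cyp4a32 (SE 0.58), with limma adjusted p = 0.856 for both.

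After either transplant the mean levels of Cyp4a10, Cyp4a14 and Cyp4a12a lay between those of Con and STZ. In A10-FMT livers Cyp4a10 and Cyp4a14 were lower than in STZ and Cyp4a12a was higher, but no member passed the test, and 0.49% of all genes did (53 genes, 2041 at an unadjusted limma p under 0.05). In 5 of 6 members the A10-FMT and STZ groups did not overlap, against 21.4% of all genes.

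Cyp4a10 was at 286.1, 249.6 and 492.3 RPKM in the A10-FMT mice, each below the lowest STZ mouse. The mean was 342.7 ± 131 RPKM (SD, n = 3), the STZ mean being 3.05 times as high, and the difference was -1.62 log2 units (SE 0.54, limma adjusted p = 0.139). Cyp4a14 was at 142.9, 101.8 and 141.2 RPKM. Its mean was 128.6 ± 23.3 RPKM (SD, n = 3) and the STZ mean 6.24 times as high, with a difference of -2.53 log2 units (SE 0.68, limma adjusted p = 0.0951). The ratio of Cyp4a14 to Cyp4a10 was 0.398 ± 0.107 in A10-FMT and 0.744 ± 0.182 in STZ (SD, n = 3 each), and no mouse of one group reached the other (two-sided exact permutation p = 0.1, the smallest possible).

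Cyp4a12a was at 122.9, 173.7 and 99.98 RPKM in A10-FMT. These 3 mice lay close together, above STZ mouse 3 by a small margin and far above the other STZ mice. The difference from STZ was 4.50 log2 units (SE 1.41, limma adjusted p = 0.13). Cyp4a12b, at 2, 10.9 and 3.24 RPKM, was above all 3 STZ mice, and Cyp4a32, at 39.5, 88.7 and 107.0 RPKM, was below them. Cyp4a31, at 3.48, 0.25 and 0.83 RPKM, overlapped STZ.

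These calls depended on which mice were in the model. Without STZ mouse 3, 2 members passed in A10-FMT against STZ: Cyp4a14 (-2.95 log2 units, limma adjusted p = 0.0247) and Cyp4a12a (6.53, adjusted p = 0.00354). The count over all genes then rose from 53 to 1000, while it was 0 without STZ mouse 2 or A10-FMT mouse 2 and 370 without STZ+AOS mouse 3. Cyp4a14 also passed without Con-FMT mouse 2 (limma adjusted p = 0.0384). Leaving out a mouse changes the spread that all groups share.

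Con-FMT livers varied more from mouse to mouse than A10-FMT livers in Cyp4a10, Cyp4a14 and Cyp4a12a, with coefficients of variation of 74.1%, 81.5% and 83.7% against 38.2%, 18.1% and 28.5% (a difference that was not tested). No member passed the test against STZ, where 0.166% of all genes did (18 genes, 2030 at an unadjusted limma p under 0.05). In none of the 6 members were the groups free of overlap, against 17.5% of all genes.

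Cyp4a10 was at 890.3, 151.2 and 460.8 RPKM in the Con-FMT mice and Cyp4a14 at 473.3, 44.8 and 271.3 RPKM. Mouse 1 lay within the STZ range and mouse 2 was the lowest of all STZ-treated mice in both genes. The differences from STZ were -1.35 (SE 0.54, limma adjusted p = 0.198) and -2.03 log2 units (SE 0.68, adjusted p = 0.142). Cyp4a12a ran the other way, at 8.03, 204.5 and 151.7 RPKM, and differed from STZ by 3.52 log2 units (SE 1.41, limma adjusted p = 0.201).

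Cyp4a12b was at 1.34, 14.4 and 25.2 RPKM in Con-FMT, the highest value of the series being in mouse 3. Its difference from STZ was 2.81 log2 units (SE 0.79, limma adjusted p = 0.11). Cyp4a32 was at 129.9, 42.0 and 62.7 RPKM and Cyp4a31 at 6.57, 1.74 and 4.68 RPKM, and both overlapped STZ. Without STZ mouse 3, Cyp4a14 (-2.46 log2 units), Cyp4a12a (5.55) and Cyp4a12b (3.25) passed in limma, with adjusted p = 0.0443, 0.00734 and 0.0277, and the count over all genes rose from 18 to 1322. That count was 282 without STZ+AOS mouse 3 and 0 without, among others, any 1 of the Con, AOS or A10-FMT mice. Cyp4a12b also passed without STZ+AOS mouse 3 (limma adjusted p = 0.0488) and without Con-FMT mouse 1 (adjusted p = 0.0443).

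**Figure D4:**
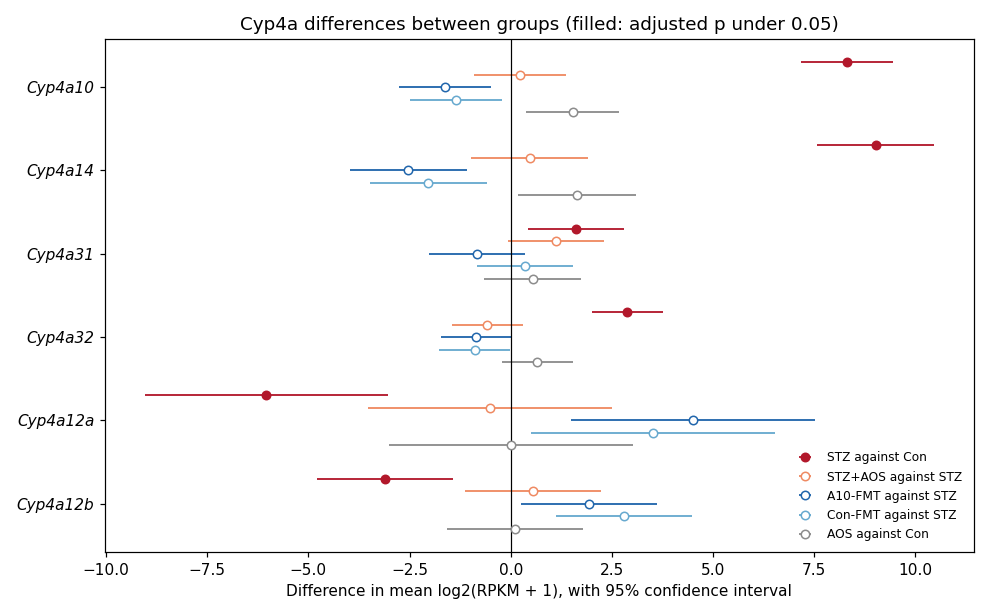
Difference in mean log2(RPKM + 1) for each Cyp4a gene in 5 comparisons, with 95% confidence intervals from limma (filled points, adjusted p under 0.05). Filled points occur only for STZ against Con, and 4 of the 5 comparisons have none.

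Both transplanted groups stayed far from Con in Cyp4a10 and Cyp4a14. In A10-FMT against Con, 3 of 6 members passed, against 17.1% of all genes: Cyp4a10 (6.69 log2 units), Cyp4a14 (6.49) and Cyp4a32 (2.03), with limma adjusted p = 5.09e-06, 6.12e-05 and 0.00549. Cyp4a10 and Cyp4a14 had the largest and second largest rises of all genes there. The Con mean of Cyp4a12a was 2.85 times the A10-FMT mean, and no A10-FMT mouse came near the Con range. Groups without overlap were seen for 48.4% of all genes in this comparison. The Cyp4a12a difference of -1.54 log2 units (SE 1.41, limma adjusted p = 0.477) did not pass. With only these 2 groups in the model the same difference was called (SE 0.18, limma adjusted p = 0.00114), since the spread then came from these 6 mice alone.

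In Con-FMT against Con, 4 of 6 members passed, against 18.1% of all genes. These were Cyp4a10 (6.96 log2 units), Cyp4a14 (6.98), Cyp4a32 (1.99) and Cyp4a31 (1.97), with limma adjusted p = 3.85e-06, 2.67e-05, 0.00675 and 0.0271. The Cyp4a31 call was lost without any 1 of the Con mice or of Con-FMT mouse 1 or 3, without the filter on low values and under both rescalings. Cyp4a12a fell short of the test at -2.52 log2 units (SE 1.41, limma adjusted p = 0.22). Every Con-FMT mouse was below every Con mouse in Cyp4a12a, and groups without overlap were seen for 45.3% of all genes. Cyp4a12b overlapped Con.

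The transplants were not told apart by any member. In A10-FMT against Con-FMT 0% of all genes were called (245 at an unadjusted limma p under 0.05), and the adjusted p was 0.999 for all 6 members. The 95% confidence intervals of the difference were -1.42 to 0.87 log2 units for Cyp4a10, -1.95 to 0.95 for Cyp4a14 and -2.03 to 3.99 for Cyp4a12a. Differences of more than 2-fold in either direction lie inside the last of these.

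Ordered by mean level, Cyp4a10 and Cyp4a14 ran STZ+AOS, STZ, Con-FMT, A10-FMT, AOS and Con, and the first 4 groups overlapped each neighbour. Cyp4a32 ran STZ, STZ+AOS, A10-FMT, Con-FMT, AOS and Con, and only STZ against STZ+AOS and Con-FMT against AOS were neighbours without overlap. Cyp4a12a ran AOS, Con, A10-FMT, Con-FMT, STZ and STZ+AOS, with a gap only between Con and A10-FMT. Cyp4a31 ran STZ+AOS, Con-FMT, STZ, A10-FMT, AOS and Con, with a gap only between AOS and Con. Cyp4a12b ran Con-FMT, AOS, Con, A10-FMT, STZ+AOS and STZ, and every neighbouring pair overlapped.

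Mice that kept more Cyp4a12a tended to have less Cyp4a10 and Cyp4a14. In 3 of the 4 STZ-treated groups the mouse with the most Cyp4a12a had the least Cyp4a10 and the least Cyp4a14. These were STZ mouse 3, A10-FMT mouse 2 and Con-FMT mouse 2. The exception was STZ+AOS, where mouse 3 had the most Cyp4a12a and the most Cyp4a14. With 3 mice a group this is a description and no test was made.

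**Figure D5:**
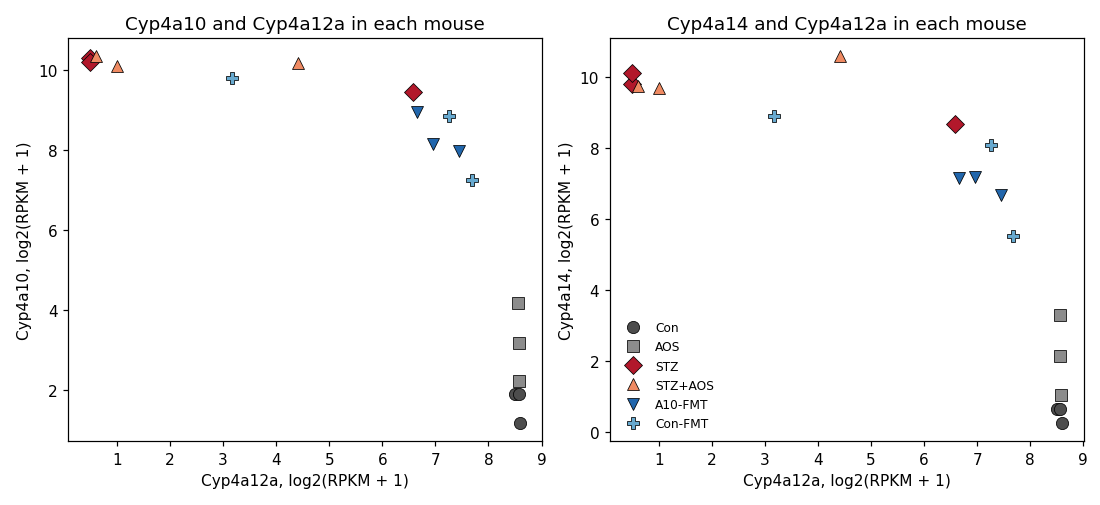
Level of Cyp4a10 (left) and Cyp4a14 (right) against Cyp4a12a in each mouse, all as log2(RPKM + 1); symbols and colours mark the 6 groups. The Con and AOS mice lie at the lower right, most STZ and STZ+AOS mice at the upper left, and STZ mouse 3 lies next to the FMT mice at 94.7 RPKM of Cyp4a12a.

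The genes whose log2(RPKM + 1) ran most like a member over the 18 libraries were picked by Pearson's r, given as a description since mice with and without STZ form separate groups of points and share normalization. For Cyp4a10 they were Got1 (r = 0.989), Rbbp7, Hpd, Slco1a4 and Cyp2c39. For Cyp4a14 they were Got1 (r = 0.990), Isca1, Cyp2c39, Fth1 and D17Wsu92e. Got1, the cytosolic aspartate aminotransferase, averaged 43.4 RPKM in Con and 294.6 RPKM in STZ, with 216.1 RPKM in the A10-FMT and 216.5 RPKM in the Con-FMT livers. For Cyp4a12a they were Mup21 (r = 0.984), Mup12, Mup11, Serpina1c and Serpina1d. Mup genes encode major urinary proteins and are, like the Serpina1 genes, near copies of each other whose values may share reads.

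The wider pathway was read from 8 gene lists, whose counts between Con and STZ stand beside 36.1% of all genes called, 85.5% of these higher in STZ. The share called was 42.9% for other Cyp4 genes, 50.0% for electron donors, 59.1% for the steps after omega-hydroxylation and 75.0% for other PPARalpha targets. It was 61.5% for receptors and cofactors, 75.0% for male-biased genes, 76.9% for female-biased genes and 66.7% for growth hormone and androgen signalling. The first 2 of these shares, of 7 and 4 genes, lie near that of all genes. Other members of the Cyp4 family moved little. Of 7 tested, Cyp4f15 (0.84 log2 units) and Cyp4f16 (1.00), which hydroxylate long-chain lipids, rose between Con and STZ, Cyp4v3 fell (-0.68), and 4 did not pass. Their median difference was 0.26 log2 units, near the 0.21 of all genes, whereas Cyp4a14, Cyp4a10, Cyp4a32 and Cyp4a31 rose by 1.62 or more. None of the 7 was called lower without Con mouse 2 or 3, AOS mouse 3, or STZ mouse 1 or 2. Of 4 electron donors to P450 enzymes, Por, the reductase that all microsomal P450s need, rose by 3.11 log2 units (SE 0.31, limma adjusted p = 1.68e-05) and Cyb5a by 0.59, and Cyb5r3 and Cyb5b did not pass. The call of Cyb5a was near the limit (limma adjusted p = 0.0459). Only 1 of the 4 was called higher without the filter on low values or without any 1 AOS or A10-FMT mouse. The same held without Con mouse 1 or 3, STZ mouse 1 or 2, or Con-FMT mouse 3. After rescaling, 2 (quantile) and 1 (median-ratio) of the 4 were called higher and 2 were called lower.

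Of 22 tested genes of the steps that follow omega-hydroxylation, 13 rose, 0 fell and 9 did not pass between Con and STZ, with a median of 0.60 log2 units. Aldh3a2, the fatty aldehyde dehydrogenase that continues the oxidation, rose by 2.02, the peroxisomal isomerase Eci2 by 1.26, the peroxisomal thioesterase Acot4 by 2.15 and the peroxisomal importer Abcd2 by 2.94. Ehhadh, the bifunctional enzyme of peroxisomal oxidation, rose by 1.16 (SE 0.19, limma adjusted p = 0.000641). After rescaling, 10 (quantile) and 8 (median-ratio) of the 22 were called higher, and 1 was called lower.

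Of 24 tested PPARalpha targets outside the Cyp4a family, 17 rose, 1 fell and 6 did not pass, with a median of 1.00 log2 units. The thioesterases Acot1 (2.24) and Acot2 (2.27), which are near copies, the lipoprotein lipase inhibitor Angptl4 (1.85) and Retsat (1.91) had the smallest adjusted p. The gene that fell was Fabp1, the liver fatty acid binding protein (-1.52, limma adjusted p = 0.022), and its call was lost without the filter on low values, under quantile normalization and without Con mouse 2, Con mouse 3 or STZ mouse 2. All of these differences are smaller than those of Cyp4a10 and Cyp4a14.

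Ppara itself, which encodes the receptor, was 0.34 log2 units higher in STZ (SE 0.23, limma adjusted p = 0.254) and did not pass. Of 13 lipid-sensing receptors and cofactors, 7 rose, 1 fell and 5 did not pass. Lpin1 rose by 3.17, the coactivator Ppargc1a by 1.87 and the partner receptor Rxra by 0.52, while the related receptor Ppard fell (-2.09, limma adjusted p = 1.47e-05). After either rescaling, 4 of the 13 were called higher.

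Cyp4a12a and Cyp4a12b fell together with other male-biased liver genes. Of 12 tested, 9 fell, 0 rose and 3 did not pass between Con and STZ. The number that fell was 11 without STZ mouse 3, 7 without STZ mouse 1 or 2, and 8 without any 1 Con mouse. With at least 1 RPKM required in every library, 6 of 9 tested fell. The median was -4.52 log2 units, beside -6.04 for Cyp4a12a. Elovl3, a fatty acid elongase, fell by 6.48 on the log2 scale, the steroid enzyme gene Hsd3b5 fell by 6.31, the complement gene C6 fell by 3.68 and Mup20, which encodes the pheromone darcin, fell by 6.98. Of 13 female-biased genes, 10 rose, 0 fell and 3 did not pass. Those that rose included Cyp2b9 (5.71), Cyp2a4 (6.55) and Cyp17a1 (5.22). The number that rose was 8 after either rescaling, without the filter on low values or without any 1 Con mouse. It was 13 with a pseudocount of 0.1. Of 9 genes of growth hormone and androgen signalling, which set the sex bias of liver genes, 2 rose, 4 fell and 3 did not pass, and after either rescaling 1 rose and 5 fell. Igfals (-1.20), the growth hormone receptor Ghr (-0.98) and Stat5a (-0.69) fell, and Socs2 rose by 1.47. No gene of this list was called higher without Con mouse 1 or without STZ mouse 2.

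In A10-FMT against STZ, the PPARalpha targets had 2 genes that fell, Acot1 (-1.52, limma adjusted p = 0.0364) and Vnn1 (-1.25, adjusted p = 0.0448), and the growth hormone list had 1, Stat5b (-0.70, adjusted p = 0.0208). Vnn1 and Stat5b, like Fabp1 above, are named after their values were seen. Both calls among PPARalpha targets were lost without the filter on low values, with only the 4 reported groups, and without any 1 of the A10-FMT or AOS mice, Con mouse 3, STZ mouse 1 or 2, or Con-FMT mouse 3. The Stat5b call was lost without any 1 of the A10-FMT mice or STZ mouse 2. In the other lists no gene passed, and in Con-FMT against STZ none passed in any of the 8 lists. The median of the male-biased list was higher than in STZ by 1.62 log2 units after A10-FMT and by 1.02 after Con-FMT, and that of the female-biased list -2.04 and -2.15, with all-gene medians of -0.05 and -0.03. Without STZ mouse 3, 9 of 12 male-biased genes passed as higher in A10-FMT than in STZ, as did 6 of 12 with Con-FMT, and 5 and 7 of 13 female-biased genes were called lower. Of the 24 PPARalpha targets, 4 and 3 were then called lower. In this setting 1000 and 1322 of all genes were called, both directions together. With all mice in the model 10822 genes were tested, and 53 and 18 were called. STZ mouse 3 was singled out by its values in these same data, so these counts are a description.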

How the data were processed

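Total RNA of whole liver was sequenced from 18 mice (6 groups of 3). The authors mapped the reads and deposited 1 RPKM value per gene and library, and the description of the mapping differs between sources, since the methods name SOAPaligner and the submitters' processing notes name Bowtie 0.12.2 with mm10. How reads that map to several near copies were shared, and which gene models gave the lengths, is not given in the sources used here, and this bears on Cyp4a31, Cyp4a32 and Cyp4a12b. No library's read depth can be read from RPKM. Steps of low values were sought in 61 candidate genes, and the 12 to 26 genes per library that showed one gave relative depths from 0.931 to 1.083. Each column was mapped by its label, and 0 columns were unmatched.

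A gene was tested when 3 or more of the 18 libraries reached 1 RPKM (10822 of 19057 symbols). After adding 1, log2 values of all 6 groups entered 1 linear model in limma (version 3.58.1, R version 4.3.3), with lmFit, contrasts.fit and a trended eBayes. The two-sided p-values of a comparison were corrected after Benjamini and Hochberg. The fit was tested on simulated data. The labels number 3 samples in each group without saying that each came from its own mouse, which is assumed here, and do not say that same-numbered samples are related, so no replicate block was used. The 6 members and the lists of pathway and marker genes were chosen with earlier results of these data known. By rule, at most 4 genes of each list were named, those ranking first by adjusted p between Con and STZ. Ppara, Por and Ehhadh were always named. Fabp1, Vnn1 and Stat5b were named outside this rule, after their values were seen. Some genes that this rule would name are not reported here. Sequences and positions are from GENCODE M21 (GRCm38), 1 transcript per gene, and windows of 35 bases were matched exactly. Alternatives were another pseudocount (0.1), other filters, quantile and median-ratio scaling, no trend, fewer groups, a replicate block and leaving out each mouse in turn.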

Additional observations from a re-analysis of the deposited data

How the results depend on the processing

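Of 1552 values of the 6 genes recomputed under the alternatives, 1505 kept their direction and their side of the threshold, 21 lost a call, 9 gained one and 17 changed sign. With at least 1 RPKM required in every library, only Cyp4a10 and Cyp4a32 could be tested, so the members called became 2 in STZ against Con, STZ+AOS against AOS, STZ+AOS against Con and Con-FMT against Con. Leaving out 1 mouse at a time gave 0 to 2 members called in A10-FMT against STZ and 0 to 3 in Con-FMT against STZ. The sign changes were all of uncalled differences. Cyp4a12a in AOS against Con became -0.049 (quantile) and -0.065 (median-ratio), and ran from -0.017 to 0.029 with 1 mouse left out. With 1 mouse left out, Cyp4a12b in AOS against Con ran from -0.067 to 0.25. In STZ+AOS against STZ, Cyp4a10 ran from -0.040 to 0.39, Cyp4a12a from -1.72 to 1.52 and Cyp4a12b from -0.28 to 1.01. Cyp4a31 in Con-FMT against STZ ran from -0.13 to 0.77 and Cyp4a12b in Con-FMT against Con from -1.01 to 0.73. In A10-FMT against Con-FMT, Cyp4a10 ran from -0.96 to 0.31, Cyp4a14 from -1.49 to 0.20, Cyp4a12a from -0.45 to 1.80 and Cyp4a32 from -0.32 to 0.48. Cyp4a12b lost its call in STZ+AOS against AOS without AOS mouse 1 or STZ+AOS mouse 1 or 2, and against Con without STZ+AOS mouse 1 or 2 (adjusted p from 0.05 to 0.0636).

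Counts over all genes moved more than those of the members. STZ against Con gave 3904 genes, 2688 after quantile and 2638 after median-ratio scaling, and 2412 to 4658 with 1 mouse left out. The count was 4102 for STZ+AOS against AOS (2729 and 2654 after the scalings) and 5123 for STZ+AOS against Con (3308 and 3227). For A10-FMT against Con 1848 genes became 958 and 1019, and 622 to 2443 with 1 mouse left out, and for Con-FMT against Con 1961 became 692 and 716, and 485 to 2634. For A10-FMT against STZ 53 genes ran from 0 to 1000 with 1 mouse left out and became 16 without the filter, 24 with the 4 reported groups and 1 with only the groups compared. For Con-FMT against STZ 18 ran from 0 to 1322 and became 2, 1 and 0. A replicate block by mouse number left every member count as it was (6 of 6 in STZ against Con). Of 45 same-numbered pairs, 16 correlated above 0.1 in their deviations from the group means (range -0.25 to 0.47). Differently numbered pairs were not compared, so these values cannot decide whether the numbers pair the mice. With 3 mice a group, RPKM without read counts and near copies in the family, small differences and values near 1 RPKM are imprecise.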
